A study of Homo sapiens with 20 samples.

Results

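The RNA described here consists of 24 unnamed entries of the size of a transfer RNA (tRNA). An entry is a reference sequence against which the authors assigned reads, and an unnamed one carries a sequence identifier (a code starting with URS, of the kind that the RNAcentral database gives) but no gene, symbol or class. The members were all unnamed entries with a listed length of 60 to 95 bases and at least 100 estimated reads summed over 20 libraries. They were 24 of 6163 unnamed entries of that length (0.389%), of which 411 had any read, and 24 of 921552 entries of all kinds. Since the choice used the summed reads, and granule libraries held 76.2% of all reads in the study, entries read mostly in granules were more likely to be chosen. The levels below are therefore a description of the chosen entries.

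Total RNA was sequenced from 2 preparations of HEK293 cells, a human embryonic kidney cell line: cytoplasmic RNA granules (titled SG in the sample names, and described as granule cores in the protocol) and exosomes, vesicles that cells secrete. The 4 groups, of 5 libraries each, were granules of HD-induced cells (HD granules), granules of control cells, exosomes of HD-induced cells (HD exosomes) and exosomes of control cells. HD is Huntington's disease, and the sources used here do not say by what means it was induced, so neither the transgene nor the treatment behind the HD label can be described. The libraries are called biological replicates, with no statement on separate cultures, so p-values measure the spread between these libraries.

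Several kinds of RNA have about the length of these entries. Transfer RNAs carry amino acids to the ribosome and are made by RNA polymerase III, trimmed at both ends, modified and charged by aminoacyl-tRNA synthetases. Box C/D small nucleolar RNAs (snoRNAs) guide methylation of ribosomal RNA, and microRNA hairpins of the same size are cut to mature microRNAs.

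The label of the group rests on length alone. The deposited files give no sequence, position or annotation for an unnamed entry, so none of the 24 can be called a tRNA here, and no name or function is given to any of them. The tRNAs that the files do name are mitochondrial: 22 were listed, and they held 9 reads in all 20 libraries together, on 1 transcript in control granule library 2. Of 1356 named microRNA transcripts of 60 to 95 bases, the summed reads were 69.4. Named snoRNAs and scaRNAs (their relatives of Cajal bodies) of that length held more, with 2498 reads on 41 of 359 listed transcripts. Sequences of 3 of these named box C/D snoRNAs follow, since they are RNAs of known sequence in the same size range whose reads lay in the same libraries as those of the unnamed entries. They are printed 5′ to 3′ from GENCODE release 29 (build GRCh38), with capitals on TGATGA, one form of box C, and on the last CTGA, box D.
SNORD14C: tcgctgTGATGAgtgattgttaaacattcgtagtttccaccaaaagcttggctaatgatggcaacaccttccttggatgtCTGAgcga
SNORD14B: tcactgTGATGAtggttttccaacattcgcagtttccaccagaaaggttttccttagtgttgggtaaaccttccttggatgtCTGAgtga
SNORD110: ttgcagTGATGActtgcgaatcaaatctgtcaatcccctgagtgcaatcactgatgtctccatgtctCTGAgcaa

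SNORD14C has 88 bases and lies at chr11:123059335-123059422 on the minus strand. SNORD14B has 90 bases and lies at chr11:17075779-17075868 on the minus strand, and SNORD110 has 75 bases and lies at chr20:2654212-2654286 on the plus strand. The letters TGATGA occurred in 11.6% of 2393 GENCODE transcripts of 60 to 95 bases, in 61.8% of the 372 snoRNAs and in 2.33% of the other 2021, on the transcript strand. CTGA occurred in 43.7% of all, in 89.8% of snoRNAs and in 35.2% of the others. Box C is TGATGA in its plain form, which SNORD56, a named snoRNA of 71 bases read in the same libraries, does not contain.

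Depth was 27.0 to 35.8 M (mega-reads) for HD granules, 17.4 to 38.4 M for control granules, 1074 reads to 14.4 M for HD exosomes and 8.99 to 15.6 M for control exosomes. In these files 3 libraries stood apart. HD exosome library 4 held 1074 reads in all and none on the 24 entries, which allows up to 2793 RPM (3 counts; RPM is the number of reads scaled to a library of 1000000 reads). HD exosome library 2 had 86.6% of its reads on unnamed entries, and the other 4 HD exosome libraries had 29.3 to 38.6%. HD granule library 3 had 0.0641% of its reads on named snoRNAs and scaRNAs, against 1.33 to 1.98% in the other 4 HD granule libraries and 0.745 to 1.20% in control granules. Ratios of the summed RPM of the 24 entries and counts of entries whose groups did not overlap are given with and without them. Most other values, among them those of the gene lists and of most single entries, include these libraries. Fits without them are named as such. The choice of these 3 libraries was made after seeing the data. Summed markers of HEK293 cells (LIN28B, NEFM, NEFL and PAX2) were at 57.9 to 96.3 RPM in HD granules, at 45.9 to 96.3 RPM in control granules, at 32.9 to 931 RPM in HD exosomes and at 118 to 150 RPM in control exosomes. NEFM had no read in HD granules, and the value of 931 RPM is that of HD exosome library 4, where it stands for 1 read.

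The 24 entries held 11277 reads in all, which was 78.0% of the 14465 reads on unnamed entries of 60 to 95 bases. Their lengths were uneven within the window. Of the 24, 15 had 71 to 75 bases, among them 8 of exactly 75 bases, 5 had 60 to 69 bases and 4 had 80 to 95 bases. The entries of 71 to 75 bases held 55.6% of the member reads, those of 80 to 95 bases 37.6% and those of 60 to 69 bases 6.74%. The longest group was carried by URS00005ED4C0 of 80 bases, which alone held 24.3% of the member reads, and the 4 most read entries together held 54.4%.

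**Figure D1:**
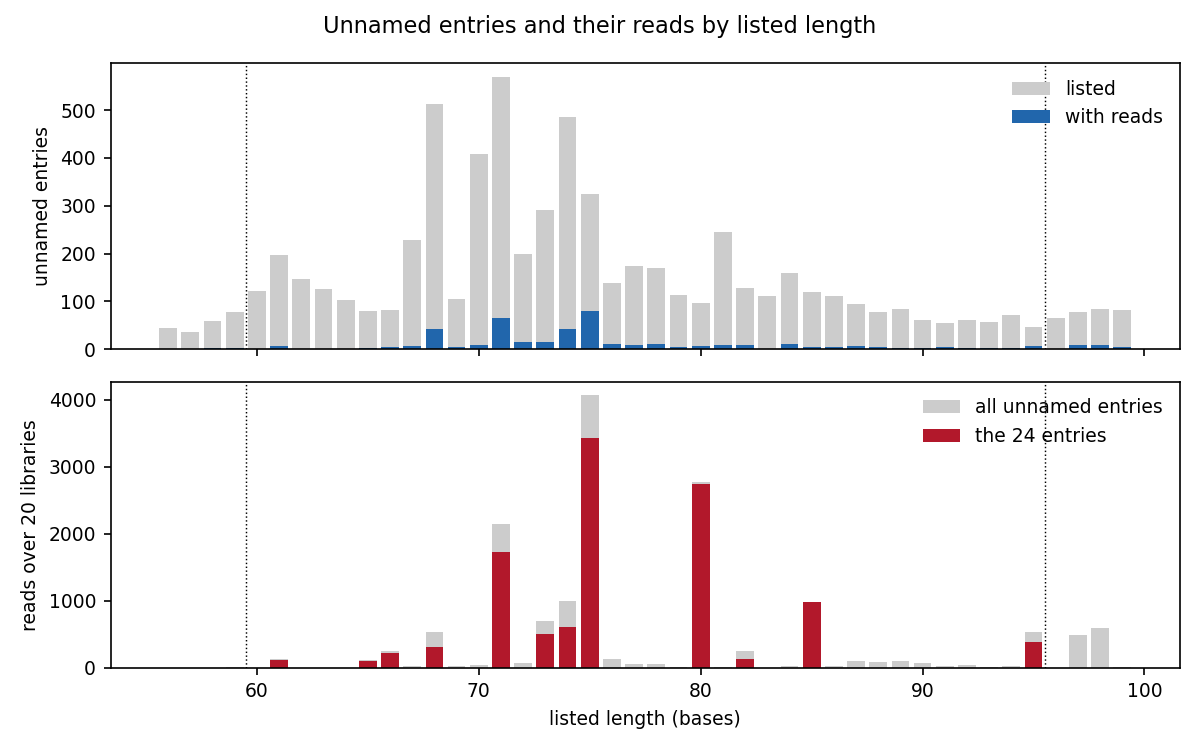
Number of unnamed entries (upper panel, listed in grey and with reads in blue) and their estimated reads summed over 20 libraries (lower panel, all unnamed entries in grey and the 24 entries in red) by listed length in bases, with dotted lines at the limits of the window of 60 to 95 bases. Reads stood at a few lengths, with the tallest bar at 75 bases, where 8 of the 24 entries lie.

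The level of an entry is given in RPM, a share of all estimated reads of a library and not an abundance per length. In such bulk preparations, fewer particles that hold an RNA and less of it per particle cannot be told apart, nor can more of one RNA and less of the rest. The summed level of the 24 entries was 39.99, 54.2, 2.46, 83.6 and 54.2 RPM in HD granule libraries 1 to 5. In control granule libraries 1 to 5 it was 24.7, 21.3, 34.6, 26.6 and 22.1 RPM. HD exosome libraries 1 to 5 had 2.10, 0.900, 7.09, 0 and 6.75 RPM, and control exosome libraries 1 to 5 had 1.63, 1.38, 2.15, 1.60 and 1.08. All control granule libraries were above all control exosome libraries, while HD granule library 3 lay inside the range of HD exosomes. In reads rather than shares, single granule libraries held 88.1 to 2926 member reads and single exosome libraries 0 to 28.7, so a level in exosomes rests on few reads. For example, the 95% Wilson interval was 1.08 to 2.36 RPM in control exosome library 1 and 22.5 to 27.2 RPM in control granule library 1 (counting error only).

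**Figure D2:**
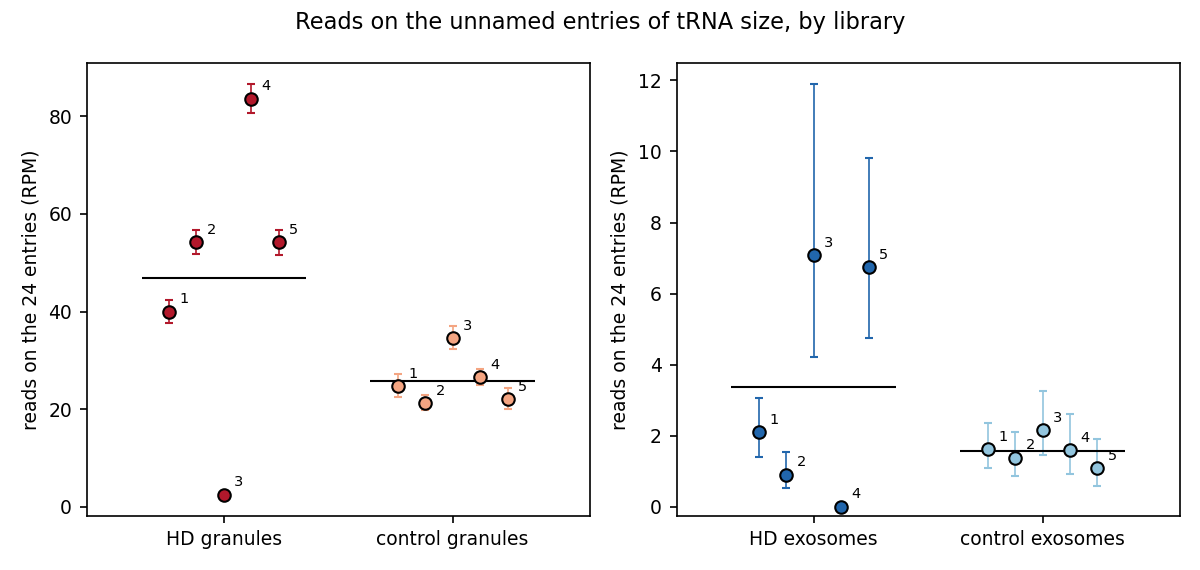
Reads on the 24 entries in RPM of each library, granules on the left and exosomes on the right with an axis of its own; numbers are libraries, lines are group means and bars are 95% Wilson intervals (not drawn for HD exosome library 4, which has 1074 reads). HD granules lay at 39.99 to 83.6 RPM except for library 3 at 2.46, control granules at 21.3 to 34.6, and all exosome libraries at or under 7.09.

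Means were 46.9 ± 29.5 RPM in HD granules and 3.37 ± 3.33 in HD exosomes (SD, n = 5 each), a ratio of 13.9, or 10.9 without the 3 libraries that stood apart. They were 25.9 ± 5.33 RPM in control granules and 1.57 ± 0.393 in control exosomes (SD, n = 5 each), a ratio of 16.5. The HD over control ratio was 1.81 in granules, or 2.24 without HD granule library 3, and 2.15 in exosomes, or 3.39 without HD exosome libraries 2 and 4. No test is given for these sums, which are sums over entries chosen by their reads. Without the minimum of 100 reads, the whole window of 6163 entries had a granule over exosome ratio of 8.74 in HD-induced cells and 8.74 in control cells. That window includes the 24 entries, which held 78.0% of its reads. Its other entries had a ratio of 3.60 in HD-induced cells and 3.28 in control cells. The ratio of the 24 entries was thus above that of the window they were taken from, and the choice by summed reads favours entries read in granules.

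Other measures moved with the compartment. In control cells, mean depth was 26.6 M reads in granules and 12.0 M in exosomes. Summed markers of blood cells were at 4.72 to 20.04 RPM in control granules and 39.98 to 124 in control exosomes, with all 5 of the markers read in every control exosome library. Those of keratinocytes were at 0.572 to 1.78 RPM in control granules and 3.79 to 49.8 in control exosomes. In HD-induced cells, mean depth was 32.8 M reads in granules and 6.55 M in exosomes. Summed markers of blood cells were at 4.04 to 42.6 RPM (median 15.8) in HD granules and at 0 to 748 RPM (median 54.9) in HD exosomes. Those of keratinocytes were at 1.04 to 4.24 RPM (median 2.46) in HD granules and at 9.93 to 931 RPM (median 126) in HD exosomes, where KRT14 had no read. The value of 931 RPM is again that of HD exosome library 4, where it stands for 1 read. The part of these differences in the levels of the 24 entries was not tested.

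The question of the study, which RNAs granules and exosomes hold in each cell state, was asked first of control cells. In control granules against control exosomes, 5 of the 24 entries passed the test as higher and none as lower, and 1 was tested and not called. The other 18 did not reach the count filter in enough libraries to be tested. The test was edgeR's quasi-likelihood test, with a call at an adjusted p under 0.05 over all 31150 features tested. Of those features, 33.1% were called higher and 24.0% lower, and their median log2 fold change was 0.37. Since 98.4% of the member reads lay in granule libraries and an entry passes the count filter through the group where it is high, a tested member is likely to be higher in granules, and counts of calls in the granule over exosome comparisons are given as a description only.

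The most read entry was URS00005ED4C0 (80 bases). It had 5.44, 6.26, 9.14, 7.54 and 8.02 RPM in control granule libraries 1 to 5, against 0.311, 0.110, 0, 0 and 0 in control exosome libraries 1 to 5. The groups did not overlap, and 3 exosome libraries had no read of it. Its log2 fold change was 5.56 ± 0.70 (SE, adjusted p = 7.03e-05). URS00019A43B0 (75 bases) had 2.31, 1.72, 3.35, 3.20 and 2.30 RPM in control granule libraries 1 to 5, against 0.126 in control exosome library 3 and 0 in the other 4. That is 346 reads against 1.38, so the ratio of 113 has a counting interval of 27.8 to 6183, and the adjusted p was 2.34e-05.

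URS0000013E6C (71 bases) had 3.23, 2.94, 4.47, 2.33 and 1.83 RPM in control granule libraries 1 to 5, against 0, 0, 0.547, 0.111 and 0.194 in control exosome libraries 1 to 5. Every granule library was above every exosome library, with a log2 fold change of 3.76 ± 0.81 (SE, adjusted p = 0.00243). URS0000759615 (75 bases) had 1.53, 1.39, 2.23, 1.18 and 1.34 RPM in control granules, against 0.0639 and 0.252 in control exosome libraries 1 and 2 and 0 in the other 3. It too was higher in all 5 granule libraries, with a log2 fold change of 3.76 ± 0.73 (SE, adjusted p = 0.00119). URS00005FD511 (75 bases) had 0.841, 0.640, 1.15, 0.813 and 0.807 RPM in control granules and no read in control exosomes, which makes it at least 16.6-fold higher (floor of 3 counts over the group, adjusted p = 0.000387).

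URS00006174C2 (74 bases) was the member whose level was closest between compartments. It had 1.29, 1.08, 1.09, 1.08 and 1.06 RPM in control granule libraries 1 to 5, against 0.230, 0.702, 0.806, 0.921 and 0.885 in control exosome libraries 1 to 5. Its shares did not overlap and their pooled ratio was 1.67 (counting interval 1.16 to 2.41). On the scale of the test, which sets each feature against the bulk of the others, its log2 fold change was 0.27 ± 0.37 (SE, adjusted p = 0.548), under the median of all features. It held 42.3% of the member reads in control exosomes and 4.30% in control granules.

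Counted over all 24 entries, with no filter, 10 had all 5 control granule libraries above all 5 control exosome libraries, and none the reverse. Among 55945 features that also had at least 100 summed reads, 31.2% were so in the first direction and 6.95% in the other. Among the 38350 unnamed entries of these features, 38.1% were so in the first direction, close to the 41.7% of the members. Of the 24, 23 had the higher mean in control granules, and the remaining one had no read in control cells. The mean was higher in control granules for 76.6% of those features, and for 85.9% of the unnamed ones. Of the 18 entries that were not tested, URS000077F722 (75 bases) had 1.91, 0.566, 1.503, 1.16 and 2.24 RPM in control granules, against 0.0728, 0, 0.570, 0.568 and 0 in control exosomes, so that its lowest granule library lay just under its highest exosome library. Among all 24 entries, 15 had no read in any control exosome library.

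**Figure D3:**
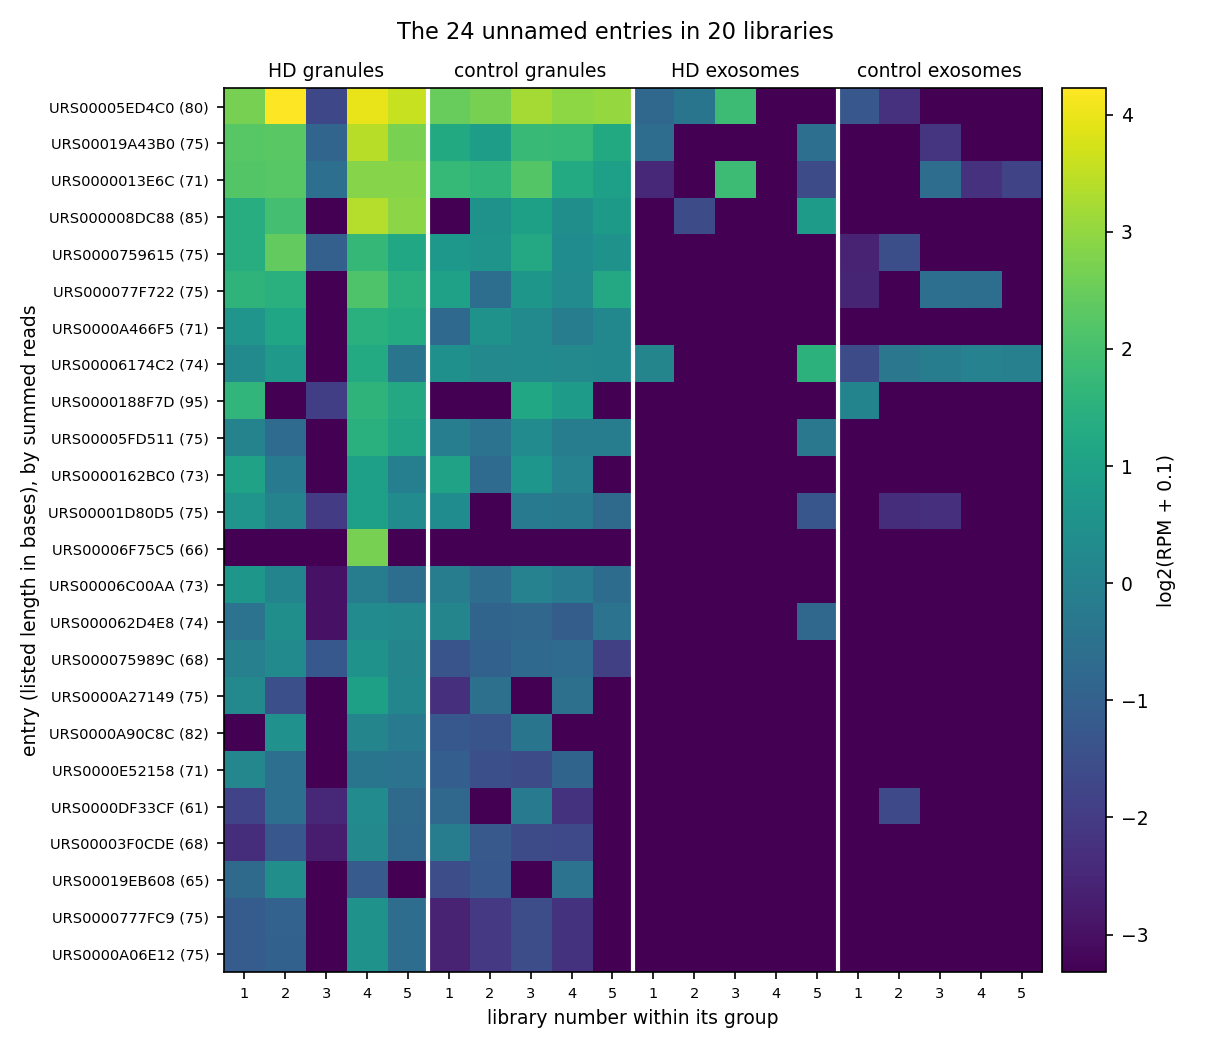
Level of each of the 24 entries (rows, by summed reads, with listed length in bases) in the 20 libraries (columns, by group) as log2 of RPM plus 0.1. Reads stood mostly in granule columns, HD granule library 3 was darker than the other granule columns, and URS00006174C2 was the entry with reads in most exosome libraries.

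In HD granules against HD exosomes, 1 entry passed the test as higher, 5 were tested and not called, and 18 were not tested. Over all 30647 features tested, 17.6% were called higher and 3.28% lower, and the median log2 fold change was 0.58 (0.94 with scaling by relative log expression, RLE). The scaling factors of this fit (TMM) were 15.5 for HD exosome library 4 and 0.185 for HD exosome library 2. Fold changes here therefore do not follow directly from the RPM values beside them. The entry that passed was URS00019A43B0, with 4.73, 4.80, 0.451, 10.5 and 6.42 RPM in HD granule libraries 1 to 5, against 0.548, 0, 0, 0 and 0.572 in HD exosome libraries 1 to 5. HD granule library 3 lay within the exosome range and the other 4 above it. Its log2 fold change was 3.77 ± 0.99 (SE, adjusted p = 0.0176).

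Leaving out libraries changed this count. Without HD granule library 3, 11 of 12 tested entries were called higher and none lower, where 26.8% of all features were called higher and 9.96% lower. Without the 3 libraries that stood apart, 14 of 21 tested entries were called higher and none lower, where 21.8% of all features were called higher and 6.18% lower. Without HD granule library 1, 2, 4 or 5, none of the 4 or 5 tested entries was called, where 10.7%, 9.96%, 10.2% and 11.3% of all features were called higher. Without HD exosome library 1, 2, 3, 4 or 5, the calls were 3, 4, 5, 4 and 4 of 15, where 21.4%, 17.5%, 17.0%, 15.6% and 21.5% of all features were called higher. Which entries were tested changed with each of these choices, so the counts carry no weight of their own. Over all 24 entries, 5 had every HD granule library above every HD exosome library, where 25.8% of features with at least 100 reads and 32.4% of the unnamed ones had, and none had the reverse, where 0.0214% had. Without the 3 libraries, 18 of 24 did so, where 34.9% of such features and 41.6% of the unnamed ones did, and again none had the reverse, where 7.32% had. All 24 had the higher mean in HD granules, where 82.6% of features and 87.8% of unnamed ones had, or 68.7% and 78.4% without the 3 libraries.

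URS00005ED4C0 had 6.29, 18.6, 0.212, 15.6 and 11.9 RPM in HD granule libraries 1 to 5, against 0.477, 0.672, 3.54, 0 and 0 in HD exosome libraries 1 to 5. The value of 3.54 in exosome library 3 stands for 7 reads. Its log2 fold change was 2.66 ± 1.11 (SE, adjusted p = 0.104), and 3.83 without the 3 libraries (adjusted p = 0.0230). URS0000013E6C had 4.56, 4.74, 0.581, 7.16 and 7.13 RPM in HD granules, against 0.0829, 0, 3.54, 0 and 0.236 in HD exosomes. Again the highest exosome value was library 3 with 7 reads, and the log2 fold change was 2.85 ± 1.07 (SE, adjusted p = 0.0747). URS00006174C2 had 1.10, 1.61, 0, 2.33 and 0.668 RPM in HD granules, against 0.988, 0, 0, 0 and 2.81 in HD exosomes, with a log2 fold change of 0.07 ± 1.08 (SE, adjusted p = 0.973). Its groups overlapped on both sides, and it held 29.4% of the member reads in HD exosomes and 2.45% in HD granules.

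**Figure D4:**
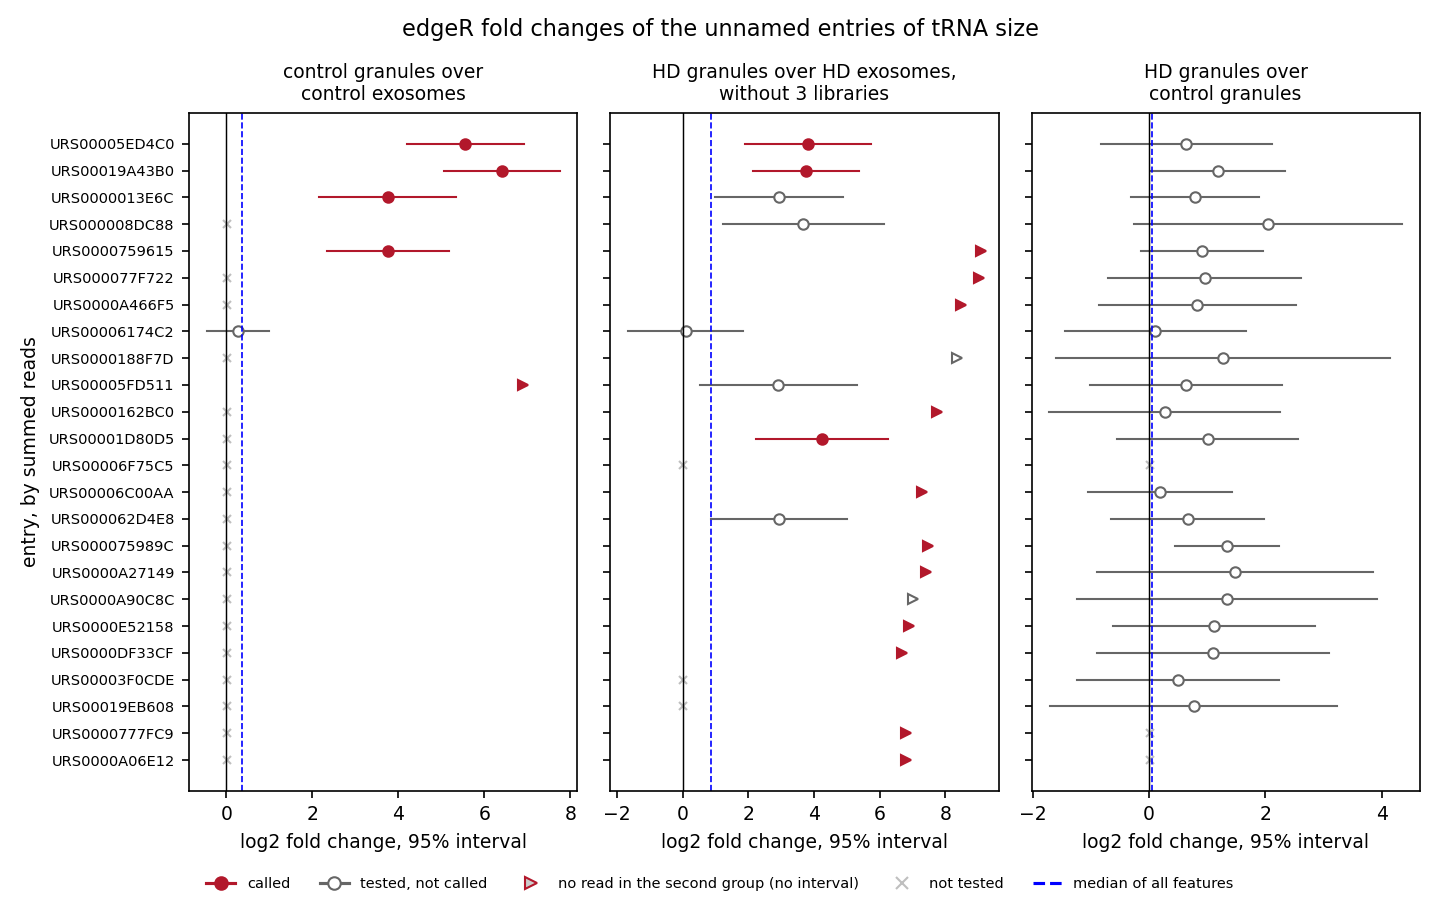
Log2 fold changes of edgeR for the 24 entries (rows, by summed reads) in 3 comparisons, the middle one without the 3 libraries that stood apart. Lines are 95% intervals by a normal approximation from the SE, which are narrower than the test implies. For URS00019A43B0 in HD granules over control granules, the line of 0.039 to 2.34 lies above 0 at an unadjusted edgeR p of 0.0697. Triangles mark entries with no read in the exosome group, whose size depends on the prior count of the fit and is no estimate; the median of all features is the dashed line. Called entries lay right of that line in the granule over exosome comparisons (5 of 6 tested in control cells, 14 of 21 in HD-induced cells, with members chosen by reads held mostly in granules), and no entry was called in HD granules over control granules.

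The HD state was then compared within granules. No entry was called: 21 of the 24 were tested, and none passed. Of all 52739 features, 0.0% were called higher and 0.0% lower by edgeR, with 937 at an unadjusted p under 0.05 (1 of them a member), while DESeq2 called 16 higher and 1 lower, none of them a member. Without HD granule library 3, 4428 of 55293 features and 12 of 23 tested members were at an unadjusted p under 0.05, again with none called. In shares, all 24 entries had the higher mean in HD granules, where 43.1% of features with at least 100 reads did, and all 24 did so without HD granule library 3, where 38.4% of features did. No entry had every HD granule library above every control granule library, where 0.116% of features had, and none the reverse, where 0.15% had. Without HD granule library 3, 9 of 24 had, where 0.94% of features had, and none the reverse, where 0.643% had. HD granules held 7673 member reads and control granules 3429, so the choice by summed reads also favoured entries high in HD granules. HD granule library 3 had the lowest summed level of the granule libraries and was left out after seeing the data. Among the 9 were URS0000777FC9 and URS0000A06E12, which differed by at most 0.044 reads in any library. These counts are therefore a description only. The level of named snoRNAs and scaRNAs of the same length was 9.79 ± 5.96 RPM in HD granules and 7.16 ± 2.56 in control granules (SD, n = 5 each).

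The entry with the smallest p was URS000075989C (68 bases). It had 0.884, 1.11, 0.326, 1.34 and 0.987 RPM in HD granule libraries 1 to 5, against 0.288, 0.404, 0.493, 0.526 and 0.168 in control granule libraries 1 to 5. HD granule library 3 lay among the control granules and the other 4 lay above them. Its log2 fold change was 1.34 ± 0.45 (SE, unadjusted p = 0.0139, adjusted p over 0.99). URS00019A43B0, with the HD granule and control granule values given above, had a log2 fold change of 1.19 ± 0.59 (SE), which did not pass.

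URS000008DC88 (85 bases) had 2.49, 3.84, 0, 10.3 and 7.45 RPM in HD granule libraries 1 to 5, against 0, 1.33, 1.84, 1.25 and 1.62 in control granule libraries 1 to 5. Each group had 1 library with no read, and the other 4 HD granule libraries were above all control granules. Its log2 fold change of 2.05 ± 1.18 (SE) did not pass. It was 10.4% of the member reads in HD granules and 4.91% in control granules. In exosomes it had 10.3 reads in HD-induced cells and none in control cells.

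In HD exosomes against control exosomes, none of the 24 entries had enough reads to be tested. Of 18102 features tested, 0.0% were called higher and 0.00552% lower, which is 1 feature, with 1050 at an unadjusted p under 0.05. The 24 entries had 80.9 reads in all HD exosome libraries and 94.0 in all control exosome libraries. The mean was higher in HD exosomes for 8 of 24, where it was for 27.5% of features with at least 100 reads. Of the 24, 12 had no read in any exosome library, and such ties count as not higher here and below. The 8 are thus 8 of the 12 entries with exosome reads. Ties among all features were not counted, so these shares are no like background. No entry had every HD exosome library above every control exosome library, where 0.0% of features had, and none the reverse, where 1.5% had. Without HD exosome libraries 2 and 4 the counts were 0, 0 and 8 of 24, where 1.28% of features did not overlap and were higher, 1.71% did not overlap and were lower, and 49.4% had the higher mean. With all 20 libraries in one fit, 14 entries were tested for this comparison, and with no count filter 12 were. None was called in either, with 5 and 6 at an unadjusted p under 0.05.

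The HD effect in granules was also set against the HD effect in exosomes as an interaction term over all 20 libraries. Of the 24 entries, 14 were tested and none was called, where 0.0167% of 41972 features were called higher and 0.00238% lower. URS00005ED4C0 had a difference of effects of -3.12 ± 1.45 on the log2 scale (SE, unadjusted p = 0.0442, adjusted p = 0.572). The same difference was -1.09 ± 1.44 for URS0000013E6C (adjusted p = 0.878) and -0.14 ± 1.24 for URS00006174C2 (adjusted p over 0.99). These 3 had more than 3 reads in every group. Of the 14, 7 were above 0, among them URS000077F722 at 6.45 ± 3.01 (unadjusted p = 0.0483) and URS0000759615 at 4.90 ± 2.33 (unadjusted p = 0.0523). Neither had a read in HD exosomes, so their sizes are no estimates. Without the 3 libraries that stood apart, 19 entries were tested and none was called, where 13 of 51031 features were called higher and 1 lower.

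Further entries had reads in only some libraries of a group. URS0000188F7D (95 bases) had 3.05, 0, 0.162, 2.88 and 2.26 RPM in HD granule libraries 1 to 5, against 0, 0, 2.20, 1.69 and 0 in control granule libraries 1 to 5. Its only exosome reads were 14.8 reads in control exosome library 1. URS00006F75C5 (66 bases) had all of its 220 reads in HD granule library 4, at 6.30 RPM, and would not be a member without that library. Like URS000008DC88, one of the 4 most read entries, these were at 0 in some libraries and above 0 in others of the same label.

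Values of the remaining entries of the 10 with the highest mean share of member reads over the groups follow. URS000077F722 had 2.92, 2.65, 0, 4.37 and 2.66 RPM in HD granules, against no read in HD exosomes, which makes it at least 27.1-fold higher in HD granules. HD granule library 3 was again the one without reads of it. URS0000759615 had 2.50, 5.25, 0.397, 3.15 and 2.18 RPM in HD granules and no read in HD exosomes, at least 29.4-fold higher, and all 5 HD granule libraries held it. URS00005FD511 had 0.943, 0.518, 0, 2.67 and 2.01 RPM in HD granules, against 3.02 reads in HD exosome library 5 and none in the other 4 HD exosome libraries. URS00001D80D5 (75 bases) had 1.42, 0.944, 0.147, 1.81 and 1.14 RPM in HD granule libraries 1 to 5, against 1.17, 0, 0.790, 0.728 and 0.510 RPM in control granule libraries 1 to 5. It had 1.29 reads in HD exosomes and 2.52 reads in control exosomes, at or under the floor. Over all 24 entries, 12 had no read in any of the 10 exosome libraries and 7 had reads in all 10 granule libraries.

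Most values were not whole numbers. Salmon, the tool named in the submitters' processing notes, divides reads that fit several entries between them. Of 233 member values above 0, 26 (11.2%) were whole within 0.001 reads, and 19 entries had no whole value at all. URS000062D4E8 (74 bases) had only whole values, with 135 reads in HD granules, 69 in control granules, 2 in HD exosomes and none in control exosomes. URS0000777FC9 and URS0000A06E12, both of 75 bases, differed by at most 0.044 reads in any library, with 87.8 reads each in HD granules and 16.2 each in control granules. The levels of this pair are uncertain one by one.

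The entries were also short against the sequenced fragments. Reads were 100 bases long per the labels, longer than any entry, and the files give an effective length (the number of start positions a fragment could have) for each. Its median over all unnamed entries of 75 bases was 8 to 12 bases in granule libraries and 13 to 30 in exosome libraries with more than 1074 reads. TPM divides by it, and on that scale the summed level of the entries was 1691 in HD granules and 81.7 in HD exosomes, a ratio of 20.7, and 1154 in control granules and 52.8 in control exosomes, a ratio of 21.9. The ratio in shares of reads was 13.9 and 16.5 for the same pairs.

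Windows of other length did not share one direction. Unnamed entries of 96 to 249 bases held 1.74 ± 0.490% of reads in control granules and 0.144 ± 0.110% in control exosomes (SD, n = 5 each), a ratio of 12.0, and 2.52 ± 1.48% in HD granules and 1.29 ± 1.43% in HD exosomes, a ratio of 1.95. Those of 250 to 350 bases held 10.7 ± 2.12% in control granules and 24.9 ± 3.11% in control exosomes, a ratio of 0.428. Entries of this window held 9.55 ± 3.48% in HD granules and 14.05 ± 4.90% in HD exosomes (0.680 as a ratio). Longer unnamed entries had ratios of 1.40 (351 to 1000 bases) and 1.70 (over 1000 bases) in control cells, and of 0.777 and 0.685 in HD-induced cells. Those over 1000 bases held 14.1 ± 6.71% in HD granules and 20.6 ± 20.8% in HD exosomes, with 57.7% in the highest exosome library. Only HD exosome library 2, with 86.6% of its reads on unnamed entries, can hold that value. Those of 351 to 1000 bases had 16.3% in their highest HD exosome library, with a mean of 8.28%. By these means, the window of 96 to 249 bases was higher in granules in both cell states, and that of 250 to 350 bases was lower in both. Means of the longer ones differed in direction between the states with all libraries included. Ratios without the libraries that stood apart are not given, and none was tested.

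Among named RNAs of 60 to 95 bases, snoRNAs and scaRNAs had 7.16 RPM in control granules and 0.0751 in control exosomes. SNORD14C, a box C/D snoRNA, was called higher in control granules, at 2.45 ± 1.13 RPM in control granules and 0.0751 ± 0.168 in control exosomes (SD, n = 5 each), with a log2 fold change of 4.39 ± 0.89 (SE, adjusted p = 0.00158). SNORD14B and SNORD110 had 162 and 42.9 reads in control granules and no read in any exosome library. HD granule library 3 had 0.107 RPM on these named RNAs, against 8.76 to 15.1 in the other 4 HD granule libraries, the same library that was low for the 24 entries. RNA5SP149, a 5S ribosomal RNA pseudogene of 92 bases, did not share the pattern, with 3.09 ± 0.870 RPM in control granules and 2.29 ± 2.02 in control exosomes (SD, n = 5 each) and 106 RPM in HD exosome library 2, one of those that stood apart.

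Genes listed as making, processing or charging tRNAs were read in the same fits as mRNAs, or as the RNA of RNase P or MRP. Their levels have no bearing on what the unnamed entries are. The list for tRNA maturation is broad and holds RMRP, DICER1 and XPO5, whose products do not act on tRNAs alone. Of 45 genes of tRNA maturation, 9 were higher and 26 lower in control granules than in control exosomes, with a median log2 fold change of -0.85. The median of 0.37 over all features was carried by the unnamed ones: the 14640 named features tested had a median of -0.37, with 18.9% higher and 42.5% lower, so named genes as a whole were more often lower in control granules. HSD17B10, a subunit of the mitochondrial RNase P, fell by 2.79 on the log2 scale (SE 0.16, adjusted p = 3.44e-07), with 18.7 ± 3.39 RPM in control granules and 96.8 ± 4.08 in control exosomes (SD, n = 5 each). TRMT1, which methylates guanosine in tRNAs, fell by 2.29 (adjusted p = 1.91e-06), and RTCB, the ligase of tRNA splicing, fell by 1.96 (adjusted p = 3.17e-06).

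Of 20 genes of RNA polymerase III and its factors, 1 was higher and 11 lower in control granules, with a median of -0.73. CRCP, a subunit of the enzyme, fell by 2.16 (adjusted p = 2.23e-06). GTF3C5 and GTF3C2, subunits of the initiation factor TFIIIC, fell by 2.66 and 1.88 (adjusted p = 2.93e-06 and 3.66e-06). Of 23 cytosolic aminoacyl-tRNA synthetases and their scaffold proteins, 3 were higher and 17 lower, with a median of -0.80, among them KARS1 for lysine, which fell by 2.05 (adjusted p = 1.21e-06). FARSA, a subunit of the enzyme for phenylalanine, fell by 2.44 (adjusted p = 2.71e-06), and AIMP2, a scaffold of the synthetase complex, by 2.20 (adjusted p = 7.69e-07).

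In HD granules against HD exosomes, 1 gene of tRNA maturation was higher and 5 lower of 45, none of 20 polymerase III genes passed, and 1 synthetase gene was higher and 2 lower of 23. Of 14465 named features, 7.89% were higher and 4.87% lower, with a median log2 fold change of 0.011. With RLE scaling, these counts were 5 higher and 2 lower, 2 higher and 0 lower, and 2 higher and 2 lower. HSD17B10 fell by 2.38 (adjusted p = 0.00424), KARS1 by 1.56 (adjusted p = 0.0153) and AIMP2 by 1.56 (adjusted p = 0.0228), while EEF1E1, another member of the synthetase complex, was higher by 2.27 ± 0.61 (SE, adjusted p = 0.0198). Levels in HD exosomes were uneven, at 263 ± 377 RPM for HSD17B10, 86.6 ± 71.1 for KARS1, 28.8 ± 25.7 for AIMP2 and 34.6 ± 28.8 for EEF1E1 (SD, n = 5 each). No fit of these genes without HD exosome libraries 2 and 4 is given. In HD-induced against control cells, no gene of the 3 lists was called in granules or in exosomes.

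The limit of 100 reads fell among entries of like size. Just above it were URS00019EB608 with 108 reads, URS0000777FC9 with 104.0 and URS0000A06E12 with 104.0 reads. Just below it were URS00005EA0AD with 99.95, URS00004CF38D with 97.9 and URS0000E339B7 with 89.0 reads. URS00005EA0AD (73 bases) had 64.9 reads in HD granules, 20.9 reads in control granules, 3.99 reads in HD exosomes and 10.1 reads in control exosomes. Of 281 unnamed entries of 60 to 95 bases with reads in control libraries, 238 had the higher mean in control granules and 43 in control exosomes, and among those 43 the highest mean was 0.434 RPM.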

How the data were processed

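Per the submitters' processing notes, reads were handled with Trimmomatic, cutadapt, FastQC and Salmon against GRCh38.p14; which versions, settings and annotation were used is not stated. Each deposited file gives, per entry, an estimated count and a TPM value made by the authors. The labels name a mirVana kit for isolation and stranded sequencing of total RNA. The members and lists were chosen with earlier results of these data known. Estimated counts of named transcripts were summed per gene, each unnamed entry was kept as a feature, and all were rounded. Features passing filterByExpr were scaled by TMM and tested with edgeR 4.0.16 (robust quasi-likelihood, R 4.3.3) within the groups compared, with Benjamini-Hochberg adjustment over all features; the interaction used all 20 libraries. The SE of a log2 fold change is its size over the square root of F. The procedure was tested on simulated data. Named entries are the 10 with the highest mean share of member reads over the groups, called entries with at least 5 CPM and no overlap between groups (otherwise the 3 with the smallest p), and 3 entries on each side of the read limit; of each gene list, up to 3 with the smallest p. Alternatives used DESeq2 1.42.0, RLE scaling, no filter, a replicate block, voom (limma 3.58.1) with quality weights, one fit of all libraries, and libraries left out. Intervals and floors cover counting error only.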

Additional observations from a re-analysis of the deposited data

Results flagged for a closer look

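Values that lay far from the other 4 libraries of their group by Dixon's criterion (gap over range above 0.71) were found for 9 of 41 groups of values of the summed and the named entries. Chance flags about 1 in 20 groups of values that follow a normal distribution. A group with 1 value above 0 and the other 4 at 0 is always flagged, however. The count of 9 can thus not be set against 1 in 20, and most of the values stand for few reads. In HD exosome library 3, URS00005ED4C0 and URS0000013E6C were at 3.54 RPM each (7 reads each), with the next library at 0.672 and 0.236. In HD exosome library 5, URS000008DC88 was at 1.65 RPM (7 reads), URS00005FD511 at 0.712 (3.02 reads) and URS00001D80D5 at 0.303 (1.29 reads). In control exosomes, URS0000188F7D was at 0.949 RPM in library 1 (14.8 reads), URS0000759615 at 0.252 in library 2 (3.56 reads) and URS00019A43B0 at 0.126 in library 3 (1.38 reads). URS00006174C2 was at 1.29 RPM in control granule library 1 (22.5 reads), with the next library at 1.09.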

How the results depend on the processing

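In control granules against control exosomes, 5 entries were called in the main fit. With no count filter, 18 of 23 tested were called (6.27% of all features called higher). With all 20 libraries in one fit, 11 of 14 were (28.2%). With one library left out, 4 to 8 of 5 to 9 tested were called, where 26.5% to 34.7% of all features were called higher. In HD granules against HD exosomes, 1 entry was called in the main fit. With no count filter, 8 of 24 tested were called (2.58% of all features called higher). In one fit of all libraries 6 of 14 were (22.6%), and by voom with quality weights 2 of 6 (26.2%). Without the 3 libraries that stood apart, 14 of 21 were called (21.8%). With one library left out, 0 to 11 of 4 to 15 tested were called, where 9.96% to 26.8% of all features were called higher. No alternative called an entry lower. The fits with no count filter covered 252432 features in control cells and 247038 in HD-induced cells. Only 55945 features had the 100 summed reads that every member has. The shares of 6.27% and 2.58% are therefore no like background for the members. Deviations of same-numbered libraries correlated at -0.036 to 0.069 in control cells, 0.004 to 0.15 in HD-induced cells, -0.050 to 0.074 in exosomes and -0.12 to 0.29 in granules. In none of these were all 5 pairs over 0.1, so the numbers were not taken as pairs. The replicate block gave 5, 1, 0 and 0 called entries in control cells, HD-induced cells, granules and the interaction. Of all features, 29.8%, 14.8%, 0.0% and 0.00715% were called higher there. The share in RPM was 42.6 in control granules and 2.69 in control exosomes over named genes only, 12.8 and 0.280 with at least 1000 summed reads, and 33.2 and 3.79 with no minimum, where HD exosomes had 6.76. With one library left out it was 37.7 to 58.004 in HD granules, 23.7 to 27.0 in control granules, 2.44 to 4.21 in HD exosomes and 1.42 to 1.69 in control exosomes.

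Over all members tested, 42 of 897 alternative log2 fold changes turned sign, on 12 entries, 27 of them in the interaction, none in a called value, and the cause was not tested. By DESeq2, 2 of 14 members were above 0 in the interaction, against 7 of 14 by edgeR. In granules by voom, 8281 features and 5 members were at an unadjusted p under 0.05. For URS00006174C2, one of the 12 entries, the log2 fold change with one library left out was -0.033 to 0.28 in control cells, -0.34 to 0.81 in HD-induced cells (-0.050 by DESeq2), -0.31 to 0.40 in granules (-0.40 with the replicate block) and -0.57 to 0.70 for the interaction (0.084 with no filter, 0.60 by voom). The interaction of URS0000013E6C was -2.35 to 1.59 with one library left out, and URS0000188F7D was at -1.28 in granules by voom. Depth limits the exosome values, where all members together had 80.9 reads in HD exosomes.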
